A study of Mus musculus with 2 samples.

Results

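Sox9, Id2, Mycn, Sox11 and Hmga2, 5 nuclear factors associated with the epithelial progenitors at the tips of the growing airways, were followed in embryonic mouse lung with and without the transcription factors Etv4 and Etv5. They were chosen by gene symbol, with earlier results of these data known. Each of the 5 was read by 1 probe set (a group of probes summarised as 1 value) that the platform annotation assigns to that symbol alone. They are 5 of 19938 genes with such a probe set. All 5 were among the 11045 measured genes, meaning that the brighter of a gene's values reached its array's median.

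The groups were wild type lung and lung labelled as Etv4;5 knockout, both taken at E13.5. For each genotype, equal amounts of RNA from 3 samples went into 1 pool and the pool onto 1 Affymetrix array. With 1 array per group there are no replicates, so no test between genotypes was possible, no value has an error, and every difference compares these 2 pools. One title calls the knockout CKO and other labels call it a knockout or DKO, and neither a Cre driver, nor the strain, nor the deleted part of either gene is given in the sources used here. Whether all lung cells lost both genes is therefore unknown.

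In the embryonic lung the epithelium at the bud tips holds multipotent progenitors that divide, extend the tree and leave behind cells of the airway stalk. Tip cells receive FGF from the mesenchyme, and Etv4 and Etv5 are induced by that signal. Sox9, an HMG-box factor of the SoxE group, marks the tips and is also the main regulator of cartilage. Id2 lacks a DNA-binding region and sequesters E proteins, the common partners of bHLH factors, and cells that express it at the tips give rise to both airway and alveolar lineages. Mycn is a Myc family factor that promotes proliferation and binds DNA with Max. Sox11 belongs to the SoxC group and is expressed in epithelium, mesenchyme and neurons of the embryo. Hmga2 is an architectural chromatin protein with AT-hooks, abundant in embryonic tissues and a classic target of let-7 microRNAs.

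The promoter sequences of Id2 and Mycn are shown because Id2 was lower in the knockout pool and Mycn was not, and because ETS factors such as Etv4 and Etv5 bind DNA around a GGAA core. Each sequence is the 250 bases before the RefSeq start of the gene (GRCm38.p6), written on the strand of the gene, at chr12:25096093-25096342 (minus strand) for Id2 and chr12:12941837-12942086 (minus strand) for Mycn. Capitals mark matches to the motifs searched on both strands, which were CGGAAG for ETS factors, CACGTG for Myc factors and AACAAT for Sox factors.

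Id2: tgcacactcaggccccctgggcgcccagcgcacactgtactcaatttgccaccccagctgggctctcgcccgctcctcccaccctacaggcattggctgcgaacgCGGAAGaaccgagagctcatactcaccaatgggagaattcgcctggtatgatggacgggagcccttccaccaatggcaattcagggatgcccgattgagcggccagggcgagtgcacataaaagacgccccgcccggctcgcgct

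Mycn: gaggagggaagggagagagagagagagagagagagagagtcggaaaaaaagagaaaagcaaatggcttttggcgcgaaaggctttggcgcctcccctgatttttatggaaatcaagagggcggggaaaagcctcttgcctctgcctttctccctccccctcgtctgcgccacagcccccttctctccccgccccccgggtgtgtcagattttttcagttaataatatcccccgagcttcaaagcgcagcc

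The Id2 window held 1 match to CGGAAG, whose first base lies 145 bases before the start, and it overlapped no other match. CGGAAG occurred in 13.6% of 32851 promoter windows of this length, CACGTG in 6.02% and AACAAT in 9.42%. The Mycn window held no match to the 3 motifs. Neither did the windows of Sox11 and Hmga2, genes also lower in the knockout pool, at chr12:27342719-27342968 and chr10:120476470-120476719 (both minus strand). Windows were matched for 4 of the 5 factors, all but Sox9. The bare core GGAA, not capitalised here, occurred on either strand 2 times in the Id2 window, 4 times in those of Mycn and Hmga2 and 0 times in that of Sox11, and in 93.4% of all windows. These matches describe letters only, and binding was not measured.

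Sox9 had the largest difference of the 5. Its value was 10.84 on the wild type array and 10.53 on the knockout array, a difference of -0.32 on the log2 scale (knockout minus wild type, as for all differences here). On a linear scale the knockout signal was 19.7% lower, or 1.25-fold. Of the other measured genes, 93 (0.842%) had a difference as low or lower. Among the 1941 measured genes whose mean level lay within 0.5 log2 units of that of Sox9, the share was 0.361%. In RNA from whole lung, fewer cells of a type and less RNA per cell cannot be told apart.

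Id2 was lower by nearly the same amount. It stood at 12.47 on the wild type array and 12.17 on the knockout array, which gave a difference of -0.31 and 19.1% less signal on a linear scale. The difference was as low or lower in 102 other measured genes (0.924%), and in 0.57% of the 351 genes of similar level. The differences of Sox9 and Id2 lay 0.01 apart.

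Hmga2 and Sox11 were lower by smaller amounts. Hmga2 had a value of 10.84 on the wild type array and 10.62 on the knockout array, for a difference of -0.22 and 14.4% less linear signal. As low or lower were 2.44% of the other measured genes and 1.5% of the 1865 at a similar level. The wild type array gave 10.89 for Sox11 and the knockout array 10.71, for a difference of -0.18 and 11.7% less linear signal. For Sox11 the corresponding shares were 4.31% of other measured genes and 3.04% of the 1744 at a similar level.

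Mycn went the other way by a small amount. The wild type array gave 9.45 and the knockout array 9.54, for a difference of 0.09 and 6.63% more linear signal. Of the other measured genes 8.68% had a difference as high or higher, as had 5.15% of the 3224 at a similar level. The order from lowest to highest difference was Sox9, Id2, Hmga2, Sox11 and Mycn. Hmga2 and Sox11 lay 0.04 apart (log2), and Sox11 and Mycn 0.27 apart, the widest step in this order. Each gene has 1 value per array, so which neighbours in this order truly differ could not be tested.

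**Figure D1:**
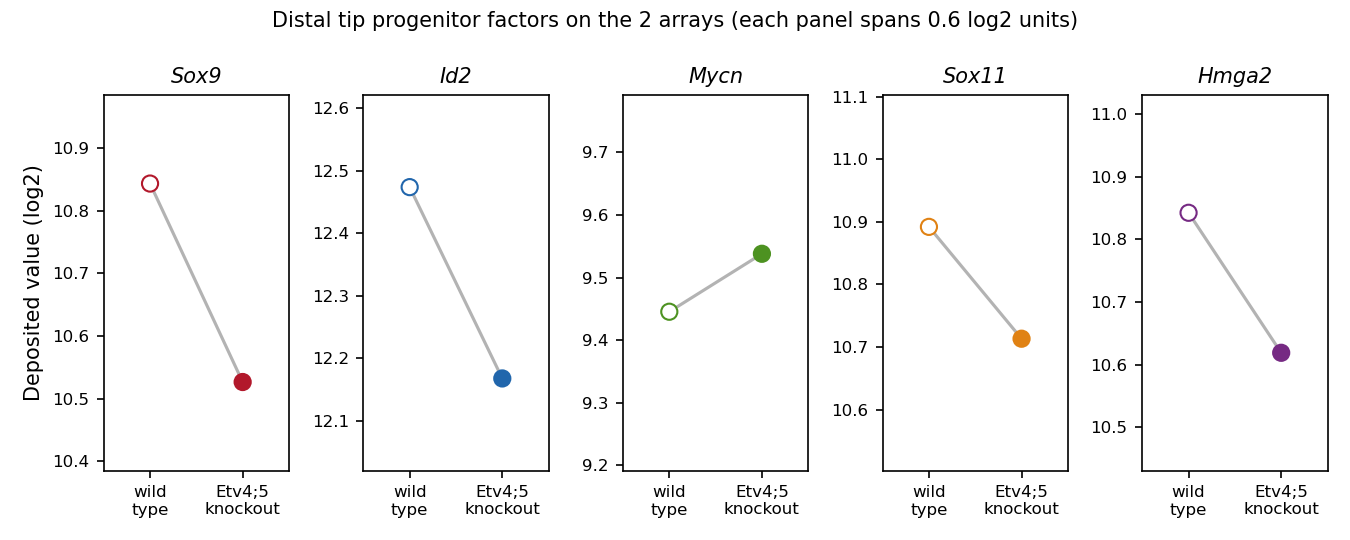
Deposited log2 values of the 5 factors on the wild type array (open circle) and the Etv4;5 knockout array (filled circle), 1 array per group and no error bars; each panel has its own y axis of equal span (0.6 log2 units). Sox9, Id2, Sox11 and Hmga2 are lower in the knockout pool and Mycn is slightly higher.

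As a group, 4 of the 5 factors were lower in the knockout pool, where 47.0% of measured genes were lower, and 1 was higher, where 25.7% were higher. The remaining 27.3% showed no difference at all between the arrays, and the sources used here do not say why. All 5 factors were among the 5725 genes whose brighter value reached the 75th percentile of its array. Of those genes 54.3% were lower. The median of the 5 differences was -0.22 and that of all measured genes 0. A difference of at least 1.2-fold (0.26 on the log2 scale) was reached by 2 of 5 factors in the lower direction, Sox9 and Id2, against 1.53% of measured genes. In the higher direction it was reached by 0 of 5, against 1.39%. At 2-fold in either direction the count was 0 of 5, against 0.0905% of measured genes, so the differences described here are small. The central 95% of differences over measured genes ran from -0.22 to 0.20. Sox9, Id2 and Hmga2 fell below that range, Hmga2 by under 0.01, while Sox11 and Mycn were inside it.

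The only view of measurement spread in these data comes from genes read by several probe sets. For 618 measured genes with 2 probe sets, the differences of the pair lay a median of 0.04 apart, and the 90th percentile of that gap was 0.18. The differences of Sox9, Id2 and Hmga2 were larger in size than this 90th percentile, that of Sox11 was slightly smaller, and that of Mycn was smaller. This gap covers probe and annotation effects within 2 hybridisations and says nothing of variation between embryos.

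**Figure D2:**
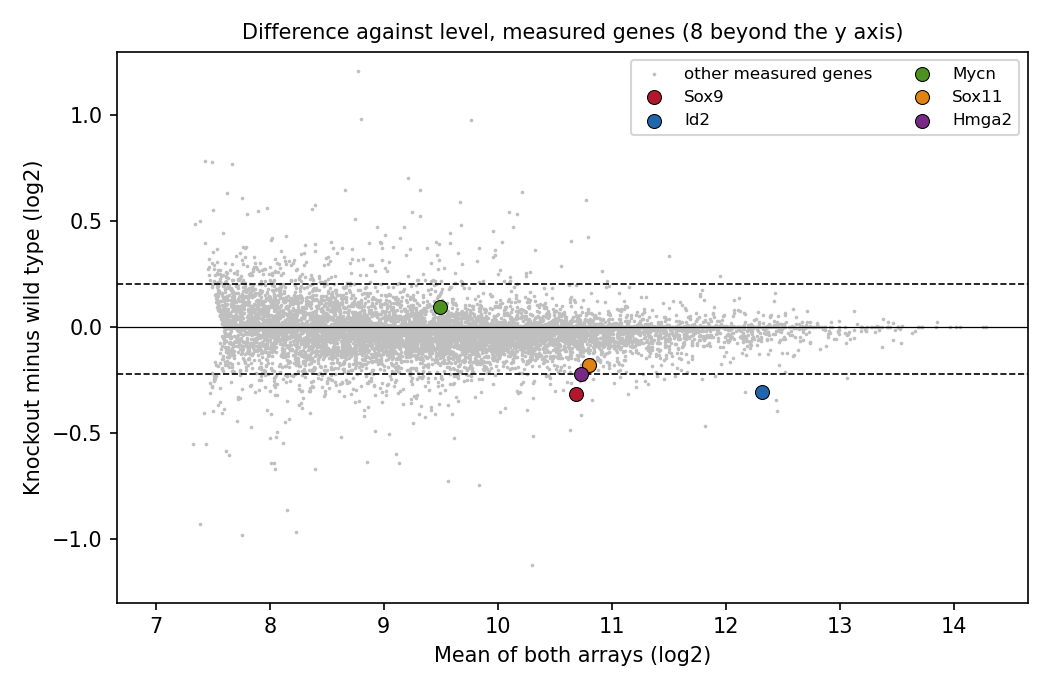
Knockout minus wild type difference (log2, y axis) against the mean of both arrays (log2, x axis) for 11045 measured genes in grey, with the 5 factors in colour; dashed lines bound the central 95% of measured genes at -0.22 and 0.20, and 8 genes lie beyond the y axis. Id2 and Sox9 lie below most genes of their level, and Mycn lies inside the band.

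The targeted genes were lower in the knockout pool as well. Etv4 differed by -0.63 (7.59 in wild type, 6.96 in knockout), with both values under the array medians. The 2 probe sets of Etv5 differed by -0.24 and -0.23, smaller in size than the differences of Sox9 and Id2. The brighter one stood at 11.51 in wild type and 11.28 in knockout (1.17-fold), so most of the Etv5 signal remained. The pools also differed in sex makeup: Xist differed by -6.60, and Uty, Eif2s3y and Kdm5d by 0.64, 0.53 and 0.53. The part of that difference in the values of the 5 factors was not tested.

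Close relatives of the 2 Sox factors showed little difference. Sox4 and Sox12, which share the SoxC group with Sox11, differed by 0.06 and -0.05. The SoxE relatives of Sox9 were dim: Sox8 (7.27 in wild type, 7.28 in knockout) and Sox10 (7.50 on both arrays) lay under the array medians. Sox2, the Sox factor of the proximal airway and the stalk, differed by 0.07.

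The family of Id2 showed smaller differences. Id1 and Id3, which like Id2 are induced by BMP signalling in many cells, were identical on the 2 arrays (9.34 and 9.60). Id4 differed by -0.06. The E proteins that Id2 sequesters differed by 0 for Tcf3, -0.08 for Tcf4 and -0.12 for Tcf12. Of these 6 measured relatives and partners 3 were lower, 3 equal and 0 higher (median -0.03). Among 7 measured BMP response genes 2 were higher, 2 lower and 3 equal, Id1 and Id3 again among the equal ones, with 0 past 1.2-fold. The largest differences there were those of the BMP antagonist Nog (0.07) and the inhibitor Smad6 (-0.06).

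In the Myc network, Mycn was among the higher genes and no measured gene passed 1.2-fold. Myc, the family member active in most dividing cells, differed by -0.02 and Mycl by 0.10. Max, the obligate partner, was equal on both arrays at 9.97. Mxd1 and Mxd4, which compete with Myc proteins for Max, differed by 0.15 and 0.14, and Mxi1, of the same kind, by -0.08. Of the 11 genes on the list 4 were higher, 4 lower and 3 equal. Among 20 Myc targets and proliferation genes 9 were higher and 8 lower, the median was 0 and 0 past 1.2-fold. The largest sizes were -0.13 for Npm1, a nucleolar protein, and 0.13 for Ccnd1, the G1 cyclin.

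For Hmga2, the genes of the Lin28 and let-7 axis were compared, since Lin28 proteins block let-7 and let-7 represses Hmga2 and the Igf2bp genes. Lin28a and Lin28b lay under the array medians and were equal on both arrays (6.98 and 6.44). Of 7 measured genes on the list 2 were lower, 1 higher and 4 equal. Igf2bp3 and Igf2bp1, RNA-binding proteins of embryonic tissue, differed by -0.13 and -0.05. Igf2 differed by 0.01. Mature let-7 was not analysed here.

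Cartilage collagens and matrix genes known as Sox9 targets showed no common direction. Of 10 measured members 3 were higher, 3 lower and 4 equal (median 0). Cnmd, which encodes the cartilage protein chondromodulin, differed by -0.41 (7.78 in wild type, 7.37 in knockout) and was the only measured member past 1.2-fold. Its knockout value lay under the array median. Col2a1, the main cartilage collagen, differed by -0.19 and Col9a3 by 0.18. Wnt response genes, of interest because Wnt signalling acts on tip progenitors, had 3 higher and 4 lower of 7 measured and 0 past 1.2-fold. Lgr5 differed by 0.23, Rnf43 by 0.18 and Axin2 by -0.14.

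**Figure D3:**
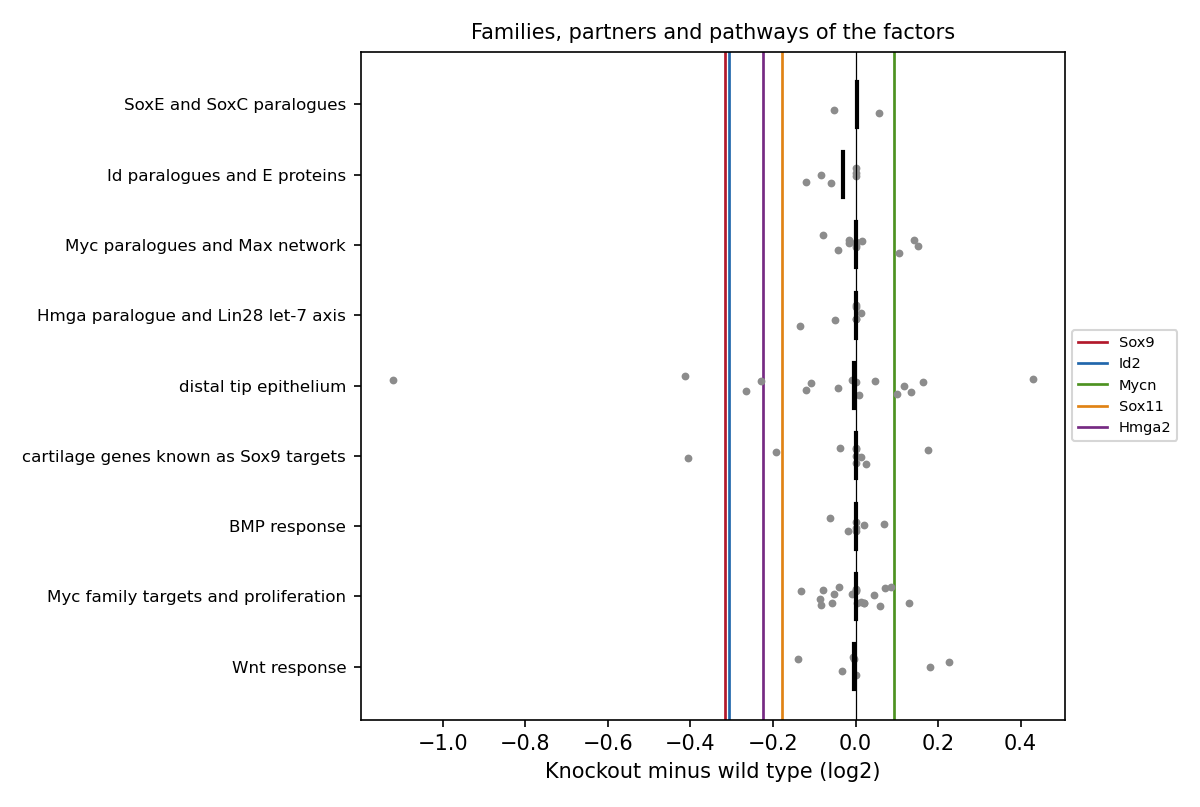
Knockout minus wild type difference (log2) of the measured genes (grey points) in 9 lists of relatives, partners and pathway genes, with the list medians without the 5 factors as black bars and the 5 factors as coloured vertical lines. The black bars lie close to 0, to the right of the lines of Sox9, Id2, Hmga2 and Sox11.

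Within a wider list of distal tip genes, which holds the 5 factors, differences went both ways. Of 21 measured tip genes 12 were lower, 4 of them among the 5 factors, and 8 were higher. Without the 5 factors, 8 of 16 were lower and 7 higher, and the median was -0.0048. The 8 lower genes include Etv5, itself a targeted gene (-0.23). Tip genes at least 1.2-fold lower were Sox9, Id2, Sftpc, the surfactant protein gene that marks the tips (-1.12), Shh, the tip ligand for mesenchyme (-0.41), and the mucin Muc1 (-0.27). Ctsh, a protease, was higher by 0.43. The lineage factor Nkx2-1 differed by 0.12 and Foxp2, also a tip factor, by 0.01. Bmp4, a ligand made at the tips, was equal on both arrays. Over all 9 lists, 6 of 89 measured genes were at least 1.2-fold lower, namely these 5 and Cnmd. Without the 5 factors the count was 4 of 84 (4.76%), against the 1.53% of all measured genes given above. Muc1 lay at the edge of this limit and no longer reached it under equal medians, quantile or loess scaling (-0.25, -0.24 and -0.25). The lists and the 1.2-fold limit were chosen with earlier results of these data known, so these shares are descriptions only.

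Cell type markers differed beside these values. General lung epithelium markers were higher in the knockout pool in 15 of 17 measured genes and lower in 0 (median 0.15). Their summed linear level was 19500 in wild type and 22200 in knockout, and Krt18 and Krt19 were the most different at 0.47 and 0.45. Sox9 and Id2 were lower in this same pool, and the part of epithelial cell number in either direction was not tested. Relative to the epithelial median, Sox9 stood at -0.46 and Mycn at -0.05. All 4 measured proximal airway markers of 9 were higher, led by Aldh1a7 (0.41) and Klf5 (0.40). Summed levels, here and below, cover every listed gene with a probe set of 1 symbol, also genes that were not measured. Over all 9 proximal airway genes the summed level was 3100 in wild type and 3830 in knockout.

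Sox11 and Hmga2 are also expressed outside the epithelium, where several lists were lower. Which cells gave the signal of each factor, Sox9, Id2 and Mycn included, was not tested in this whole lung RNA. Mesenchyme markers were lower in 10 of 13 measured genes and higher in 2 (median -0.07, summed levels 30400 and 28000). Fgf10 (0.40) and Foxf1 (-0.40) were the most different. Smooth muscle markers were lower in 9 of 9 (median -0.22, summed levels 19100 and 17300), led by Synpo2 (-0.49) and Myocd (-0.39). Relative to the mesenchyme median, Hmga2 stood at -0.15 and Sox11 at -0.11. Relative to the smooth muscle median they stood at -0.0012 and 0.04, and relative to the erythroid median at 0.01 and 0.06. Against the endothelial median they stood at -0.20 and -0.16, and against the mesothelial median at -0.28 and -0.23. Sox9 and Id2 stood at -0.09 and -0.08 relative to smooth muscle. Of 13 matched neuron and neural crest markers only 4 were measured, with 1 higher and 1 lower, namely Dcx (0.34) and Stmn2 (-0.20). The summed levels over all 13 were 3060 and 3180. Tubb3, Elavl3, Phox2a and Sox10, which define these cells, were under the array medians.

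Endothelial markers were lower in 9 of 11 with a median of -0.02, led by Pecam1 and Tek (both -0.08), with summed levels of 18400 and 18000. Erythroid markers were lower in 4 of 5 measured (median -0.24, summed levels 15400 and 13300), led by Slc4a1 (-0.26) and Hba-x (-0.25). Leukocyte markers were lower in 7 of 7 (median -0.10, summed levels 3330 and 3090), led by Mrc1 (-0.17) and Csf1r (-0.15). Mesothelial markers were higher in 4 of 6 (median 0.05, summed levels 3620 and 3890), led by Krt19 and Bnc1 (0.20). Krt19 (0.45) is on the lung epithelium list as well and was the only measured mesothelial marker past 1.2-fold. The part of cell makeup in the values of the 5 factors was not tested.

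**Figure D4:**
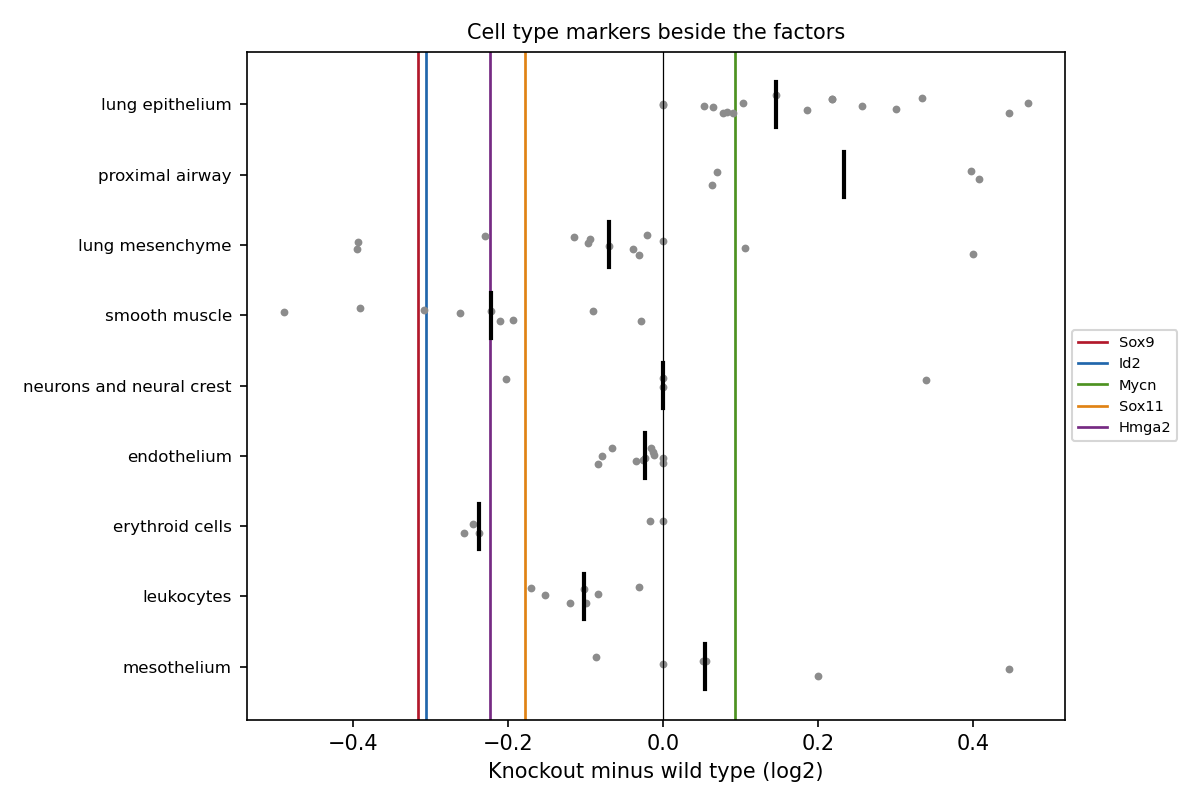
Knockout minus wild type difference (log2) of the measured marker genes of 9 cell types (grey points, medians as black bars), with the 5 factors as coloured vertical lines. Lung epithelium and proximal airway medians are above 0 at 0.15 and 0.23, the smooth muscle and erythroid medians are at -0.22 and -0.24, and the lines of Sox9 and Id2 lie to the left of all medians.

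By position, 3 of the 5 genes lie on chromosome 12 in the RefSeq table (GRCm38.p6), and Id2 and Sox11 have only 2 measured genes between them, while Mycn is 25 measured genes from Id2. Sox9 shares chromosome 11 with Etv4, 86 measured genes away, and Hmga2 is on chromosome 10. Of the 20 nearest measured genes around Id2, 6 were lower, 8 higher and 6 equal. The most different of them was Sox11 itself. Around Sox9 8 of 20 were lower and 7 higher, around Hmga2 9 and 4, and in both sets 0 passed 1.2-fold in either direction. Around Mycn 14 of 20 were lower and 5 higher, and Vsnl1, the most different, was higher by 0.28.

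Genes with the most similar pair of values were found by the Euclidean distance of the log2 values over the 2 arrays. Nearest to both Sox9 and Hmga2 were Tgfb1i1 (-0.24) and Usp1 (-0.25), followed by Myh11 (-0.26) for Sox9 and Rbms1 (-0.18) for Hmga2. For Sox11 they were Adk (-0.21), Myef2 (-0.22) and Snrk (-0.15), and for Mycn Dpp4 (0.10), Mir346 (0.08) and Marchf5 (0.07). Id2 had no close neighbour: Cycs (-0.13) was nearest at a distance of 0.13 log2 units, followed by DQ267102 (-0.13) and Mki67 (-0.09). With 2 arrays, this measure reflects brightness as much as difference.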

How the data were processed

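Per the labels, column-purified total RNA carried a biotin label and was read on Affymetrix arrays. The design text adds that 3 samples per group were pooled. The authors' deposited values, 1 for each probe set on each array, were read as log2 values from their range (2.72 to 14.4 in wild type, 2.69 to 14.4 in knockout), and the steps that made them (log base, summary method, normalization) are not given in the sources used here. The array medians were 7.60 and 7.58 over 35557 probe sets. Precision is limited by the number of arrays.

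Probe sets with exactly 1 symbol (21789) were kept, and per gene the one with the highest mean of both arrays was used, as deposited. Named genes were the 5 factors, relatives and partners, pathway list members at least 1.2-fold different (at most 4) or else the 2 of largest size, the 2 of largest size in each marker list, the targeted genes, and the 3 nearest genes per factor. A few other tip and list genes were named after their values were seen. The factors, lists and thresholds were chosen with earlier results of these data known. Alternatives were 3 scalings (a shift to equal medians, quantile, and loess of span 0.3), probe set means, a floor, other filters and other folds. Steps were tested on simulated data. Python 3.11.15, pandas 2.3.3, numpy 2.4.6, statsmodels 0.14.6 and matplotlib 3.10.9 were used.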

Additional observations from a re-analysis of the deposited data

How the results depend on the processing

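Over 5 alternatives (equal medians, quantile, loess, probe set means, and a floor at the 25th percentile) the difference of Sox9 lay between -0.32 and -0.29, Id2 between -0.31 and -0.29, Hmga2 between -0.22 and -0.19, Sox11 between -0.18 and -0.15 and Mycn between 0.09 and 0.12. Each kept its direction, and 4 of 5 factors were lower under each of them. Probe set means and the floor could not change these values, since each factor has 1 probe set and lies above the floor. Only the 3 scalings could move them. The scalings moved the median of measured genes by at most 0.017, so list medians this close to 0 have no direction. The 2 factors at least 1.2-fold lower became 4 at 1.1-fold (7.5% of measured genes) and 0 at 1.5-fold (0.163%). The 6 list genes at least 1.2-fold lower became 11 and 1 at these folds, 5 under each of the 3 scalings, where Muc1 dropped out, and 4 among genes above the 75th percentile. The share of lower genes was 33.2% over all genes and 54.3% over genes above the 75th percentile. With that filter the tip list median was -0.11, against -0.04, and no cartilage gene was left. The comparison with genes of similar level was chosen after seeing the data. No paired analysis was possible because each group has 1 array, and for that reason none was left out.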
